A study of Mus musculus with 16 samples.

Results

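The comparison described here sets confluent against sparse VEC-null cells, mouse endothelial cells in which both alleles of VE-cadherin (VEC, encoded by the gene Cdh5) are null. It rests on 8 of the 16 arrays of the series, chosen by their labels: 2 array copies of the confluent and 2 of the sparse cells on each of 2 chips, MG_U74Av2 (chip A) and MG_U74Bv2 (chip B). The cells were derived from embryonic stem cells, and both groups were kept for 36 h without serum, in MCDB 131 medium with albumin, before lysis. The remaining 8 arrays hold confluent and sparse VEC-positive cells, treated in the same way, and serve here to show where the density change of the null cells differed. The labels do not say how many cultures or clones stood behind a group, nor how the VEC-positive cells regained VEC. For every condition, 15 µg of total RNA went into 1 cRNA sample, which was applied to 2 copies of each chip. The p values therefore measure only the spread between hybridisations of the same cRNA, and compare these cRNA samples and not independent cultures.

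Endothelial cells in a confluent layer touch their neighbours on all sides, stop dividing and spread less, whereas sparse cells have free edges and strong actin tension. VE-cadherin is the main adhesive protein of the endothelial adherens junction and is one of the routes by which contact is sensed. Others are the Hippo pathway, in which contact and low tension keep the coactivators YAP and TAZ away from the TEAD factors of the nucleus, and Notch, in which a ligand on one cell activates a receptor on the next. Cells without VE-cadherin still form contacts through N-cadherin, nectins and the JAM proteins, so density can be varied in its absence.

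Copies of a null condition correlated at r = 0.984 (confluent) and 0.988 (sparse) on chip A and at 0.964 and 0.974 on chip B, across all probe sets, against 0.935 (chip A) and 0.919 (chip B) between the mean confluent and sparse values. Median signals of the null arrays ran from 151 (sparse) to 174 (confluent) on chip A and from 227 (sparse) to 234 (confluent) on chip B. The 3′ signal of the Gapdh control probe set on chip A was 20926 and 21421 in the sparse and 16729 and 17795 in the confluent arrays, and its 3′ to 5′ ratio, a sign of RNA integrity, stayed between 0.910 and 0.987 on the null arrays of both chips. The counts of probe sets with each array centred on its median are given with the first counts below, and the part of the Gapdh shift in the gene results was not tested. In bulk samples like these, fewer cells expressing a gene and less of its RNA per cell cannot be told apart.

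Markers of the labelled cell type were abundant. Of 14 endothelial markers, 13 were on the chips and 12 passed the level filter, which asked that the mean of at least 1 group exceed a signal of 160 on chip A or 231 on chip B, the median of that chip. Their summed signal was 15774 and 15934 in the 2 sparse arrays and 63485 and 65271 in the 2 confluent arrays. Summed signals of 12 smooth muscle and fibroblast markers, 5 of them above the filter, were 1767 and 1858 when sparse and 1970 and 2119 when confluent, with Cnn1, Myh11, Des, Pdgfra, Lum, Col1a1 and Thy1 below the filter. The 7 blood markers on the chips summed to 699 and 702 when sparse and to 1014 and 1414 when confluent, and the pan-leukocyte gene Ptprc was below the filter. The 6 embryonic stem cell markers summed to 494 and 456 when sparse and to 499 and 397 when confluent, with Pou5f1, Nanog and Sox2 below the filter. For 9 epithelial and mesothelial markers the sums were 1172 and 1095 when sparse and 636 and 761 when confluent, and for 7 neuronal markers they were 5318 and 7059 when sparse and 4892 and 4603 when confluent, most of it from Nes and Tubb3. The part of these markers in the gene results was not tested.

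Cdh5 itself, the mutated gene, was measured by probe set 104083_at of chromosome 8. Its signal was 1255 and 1282 in the sparse null arrays and 2707 and 2509 in the confluent null arrays, so the transcript was still detected and the groups did not overlap. The log2 change was 1.01 (SE 0.09, adjusted p = 1.1e-05), just past the threshold. It fell short of it, at 0.87 to 1.00, with an offset of 200, with arrays centred on their median, and without copy 1 of either null condition. In the VEC-positive arrays the signal was 1464 and 1334 when sparse and 2607 and 2526 when confluent. The labels do not place the null mutation relative to this probe set, so the signal does not check them.

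Of 14301 probe sets tested, 1298 (9.08%) were higher and 1058 (7.4%) were lower in confluent than in sparse null cells, at a limma Benjamini-Hochberg adjusted p below 0.05 and a log2 change of at least 1. With each gene represented by 1 probe set, 835 of 8960 genes (9.32%) rose and 707 (7.89%) fell. Every list count of rises and falls in null cells below is to be set beside these shares. The median log2 change over all tested genes was -0.01. When each array was centred on its own median, the probe sets passing were 1146 higher and 1272 lower, which moved the share of rises among the calls from 55.1% to 47.4%, with a median change of -0.09. Log2 changes below are of signal + 50, and folds are on that scale, which understates changes of dim genes.

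Sox18, a transcription factor of early vascular and lymphatic development, Fbp1, the fructose bisphosphatase of gluconeogenesis, and Ccn2, the secreted connective tissue growth factor, mark the 2 ends of the response. The Sox18 signal (probe set 104408_s_at, chromosome 2) was 288 and 301 in the sparse arrays and 12003 and 12835 in the confluent arrays, a rise of 5.18 on the log2 scale (SE 0.09, 36.2-fold, adjusted p = 1.2e-09). Its second probe set rose by 4.77. Fbp1 (96918_at, chromosome 13) was near the floor when sparse, at 46.8 and 21.8, and reached 4707 and 3761 when confluent, with a log2 change of 5.67 (SE 0.17, adjusted p = 1.7e-08). Ccn2 (93294_at, chromosome 10) went the opposite way, from 6066 and 7197 when sparse to 140 and 137 when confluent, a log2 change of -5.14 (SE 0.13, 35.4-fold, adjusted p = 7e-09). The confluent and sparse arrays did not overlap for any of these 3 genes. Of all tested genes, 9.36% were higher and 8.02% lower with no overlap of copies and a log2 change of at least 1.

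The other 8 of the 10 largest rises came from genes whose sparse signals mostly lay below 200. Ushbp1 rose by 4.89, Nts, the peptide neurotensin, by 4.60, and Slfn2, a Schlafen family gene of lymphocyte quiescence, by 4.52. Slc7a7, a subunit of the y+L amino acid transporter, rose by 4.61 with sparse copies as far apart as 31.1 and 145. Myzap, a protein of the cardiac intercalated disc and of endothelial junctions, rose by 4.41 from sparse signals of 11.1 and 9.9, and Nid2, a nidogen of the basement membrane, by 4.38. Saa3, an acute phase serum amyloid, stood at 311 and 314 when sparse and at 7627 and 6991 when confluent, a log2 change of 4.34. Igfbp3, an IGF-binding protein, rose by 4.23, and its second probe set by 4.15.

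Among the largest falls after Ccn2 were 2 further genes that respond to YAP, TAZ and TEAD, Ankrd1 and Ccn1. Ankrd1, a cardiac ankyrin repeat protein induced by stretch, went from 3001 and 2628 when sparse to 115 and 109 when confluent (log2 change -4.15), and Ccn1, a matricellular relative of Ccn2, from 2100 and 2153 to 129 and 89.8 (log2 change -3.78). Bcat1, the cytosolic aminotransferase of branched-chain amino acids, fell by 3.70 on the log2 scale, and Cited2, a CBP/p300-binding transactivator, fell by 3.66. Sprr1a, a small proline-rich protein of stressed cells, fell by 3.57. Otud1, a deubiquitinase (log2 change -3.51), Atic, which catalyses the last steps of purine synthesis (-3.44), and Fosl1, the AP-1 subunit FRA-1 (-3.27), followed. Cobl, an actin nucleator, fell by 3.64 on its representative probe set, but its other probe set, at -0.58, did not pass.

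**Figure D1:**
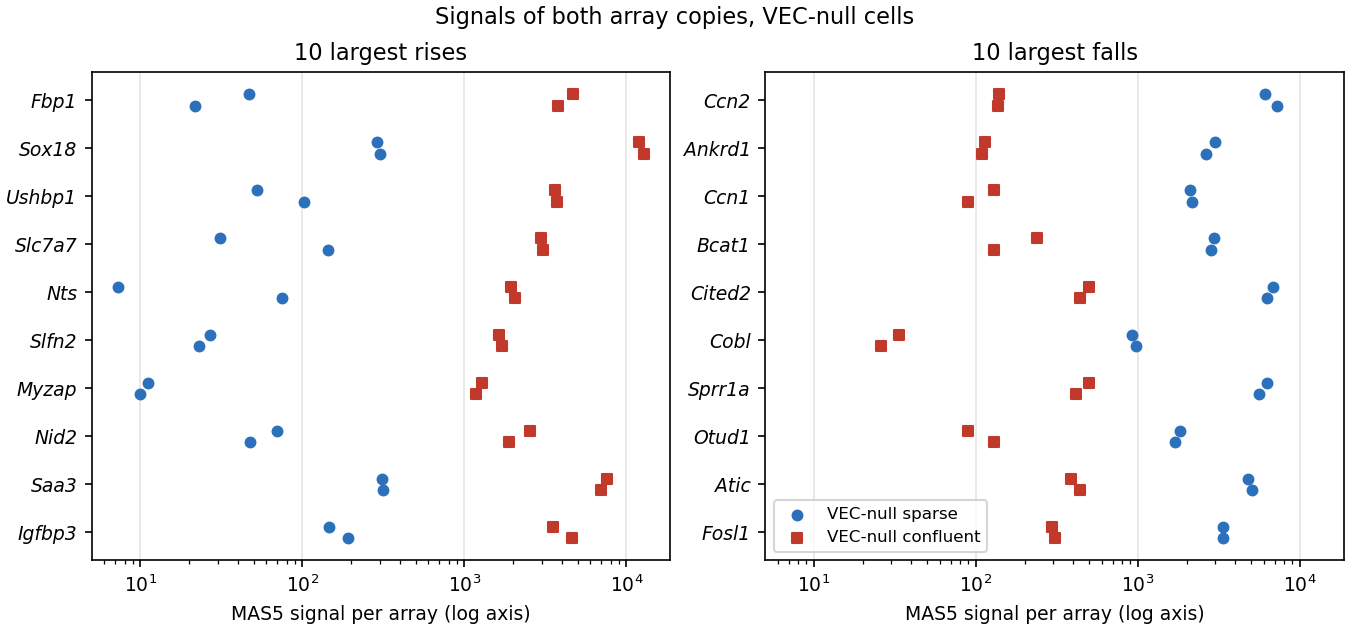
MAS5 signal (log axis) of each array copy for the 10 genes with the largest rises (left) and the 10 with the largest falls (right) in VEC-null cells; circles are sparse and squares confluent arrays. The 20 genes were chosen for the size of their change in these arrays, so the separation of the copies follows from the choice. Sox18, for example, stands at 288 and 301 against 12003 and 12835.

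The sequence that TEAD factors read stood before the start sites of several of the genes that fell. In the RefSeq promoters of assembly GRCm38.p6, taken from 250 bases before to 50 bases after each start, GGAATG was searched on both strands and was present for 6 of the 11 tested YAP and TEAD targets with a promoter in the table (54.5%), against 16.6% of all genes with a promoter and 14.1% of the genes tested. The windows of 3 genes that fell are shown, read 5′ to 3′ along the gene, with GGAATG or its reverse complement in capitals: Ccn1 (chr3:145650058-145650113, minus strand), Ankrd1 (chr19:36119937-36120079, minus strand) and Amotl2 (chr9:102717714-102717769, plus strand). A match is a description of the letters, not a bound site. Of the genes named here, Ccn2, Sox18, Usp18 and Fosl1 had no entry in the promoter table.
Ccn1: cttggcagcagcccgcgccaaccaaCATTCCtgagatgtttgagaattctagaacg
Ankrd1: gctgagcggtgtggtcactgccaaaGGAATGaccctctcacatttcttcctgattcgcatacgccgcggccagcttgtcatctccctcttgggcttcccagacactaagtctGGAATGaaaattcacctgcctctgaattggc
Amotl2: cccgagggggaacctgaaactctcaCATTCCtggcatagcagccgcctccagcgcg

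The list of YAP and TEAD targets held 15 tested genes (22 on the chips), of which 6 fell and 1 rose, against 7.89% and 9.32% of all tested genes. Besides Ccn2, Ankrd1 and Ccn1, the falls were those of cyclin D1, Ccnd1 (3909 and 3761 to 908 and 955, log2 change -1.98), of the growth-arrest gene Gadd45a (-1.61) and of the angiomotin Amotl2 (-1.65). The rise was that of Amotl1, another angiomotin, at 1.08. Amotl1 and Amotl2 were picked after their values were seen. The median over the 15 was -0.75, and over the 22 on the chips it was -0.39. Birc5 (survivin) at -0.996 (SE 0.10) and the Hippo kinase Lats2 at -0.21 did not pass.

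Genes that define endothelial cells were mostly higher when the null cells were confluent. Of 37 tested endothelial identity genes, 24 rose and 2 fell, with a median log2 change of 1.46, and the median over all 42 on the chips was 1.37. After Sox18, the largest rises were in Clec14a, a lectin of vascular endothelium (77.8 and 161 to 3103 and 2777, log2 change 4.18), Stab1, the scavenger receptor stabilin-1 (106 and 110 to 2150 and 2530, 3.91), and Gpr182, the atypical receptor formerly called the adrenomedullin receptor (23 and 93.9 to 1005 and 1125, 3.44). A second probe set for Stab1, at 0.77, did not pass. Edn1, endothelin 1, was 1 of the 2 genes that fell, from 606 and 649 to 31.8 and 55.6 (log2 change -2.87). Not every defining gene passed. Eng, the TGF-beta coreceptor endoglin, was at 4734 and 4839 when sparse and 8258 and 8990 when confluent (log2 change 0.84), and Cd34 was at 0.53. Pecam1 gave 150 and 212 when sparse and 51.1 and 287 when confluent, groups that overlapped, with a log2 change of -0.31 (SE 0.52). Vwf, von Willebrand factor, stayed between 14.4 and 23.4 in all 4 null arrays.

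The receptors for VEGF and angiopoietin were among the endothelial genes that rose. Kdr (VEGF receptor 2) went from 609 and 582 to 4320 and 4149 (log2 change 2.73, SE 0.11), Tek (the angiopoietin receptor TIE2) from 316 and 286 to 2905 and 2824 (3.05, SE 0.11), and its orphan partner Tie1 from 878 and 812 to 8806 and 8982 (3.32, SE 0.10). A second Tie1 probe set rose by 2.56. The VEGF and angiopoietin list also holds genes of other growth factors, such as FGF and PDGF. Of its 18 tested genes 12 rose and 1 fell (median 1.42), but 11 more on the chips lay below the filter, and the median over all 29 was 0.29. Fgfr1 (1.48), Pdgfa (1.18) and Pdgfrb (2.58) were among the rises, and the fall was that of Hbegf (-1.56). The ligand Vegfb changed by -0.57 and did not pass.

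At adherens junctions, the largest rises were those of plakoglobin and a pair of receptor phosphatases. Jup (plakoglobin), which can replace beta-catenin on the cadherin tail, went from 266 and 208 when sparse to 2947 and 3374 when confluent, a log2 change of 3.49 (SE 0.12, 11.2-fold, adjusted p = 3.7e-08). Among receptor phosphatases of the junction, Ptprb (VE-PTP, which binds VE-cadherin) rose by 2.28 and Ptprm by 2.07, each on all of its tested probe sets. Beta-catenin (Ctnnb1, 6247 and 6505 to 13547 and 11935, log2 change 0.99), p120-catenin (Ctnnd1, 0.96) and N-cadherin (Cdh2, 1028 and 951 to 484 and 469, log2 change -0.98) all came close to the threshold without passing it, and Ctnna1 was at 0.17. In all, 4 of 20 tested adherens junction genes rose and 0 fell by the limma test, with a median of 0.27. The 4 are Cdh5, Jup, Ptprb and Ptprm.

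Of 10 tested tight junction genes, 4 rose and 1 fell, against 9.32% and 7.89% of all tested genes. The 3 largest rises were Esam (1201 and 1190 to 8117 and 7600, 2.67), Jam2 (166 and 190 to 1199 and 1230, 2.48) and Jam3 (1.52), which are adhesion molecules of the immunoglobulin family at endothelial contacts. A further member of that family, F11r (JAM-A), was at 0.93 and did not pass. Cldn5, the main claudin of endothelium, gave 13.6 and 10.2 when sparse and 78.0 and 23 when confluent, all below the filter level in the null cells. The gap junction proteins moved apart. Gja1 (connexin 43) fell from 8007 and 7903 to 2270 and 2308 (log2 change -1.77, SE 0.16), and Gja4 (connexin 37, found in arterial endothelium) rose from 13.8 and 10.6 to 674 and 648 (3.52, SE 0.19).

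Most tested Notch genes, receptors and ligands among them, rose in the confluent null cells. The receptor Notch1 rose from 440 and 416 to 2353 and 2300 (log2 change 2.31) and Notch4, an endothelial receptor, from 141 and 161 to 1225 and 982 (2.51). The ligand Dll4, made by arterial and tip cells, rose from 96.1 and 74.1 to 1513 and 1106 (3.32, SE 0.39), and Dll1 from 123 and 163 to 1373 and 1360 (2.88). In all 10 of 15 tested genes of the Notch list rose and 0 fell by the limma test, with a median of 1.28. The median over the 18 on the chips was 1.10. Among the rises was Nrp1 (1.95), which the VEGF and angiopoietin list holds too. The ligand Jag1 at 0.05 and the DNA-binding partner of Notch, Rbpj, at -0.23 did not pass.

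A list of guidance genes, mostly ephrins, Eph receptors, semaphorins and plexins, had 12 rises and 2 falls among 27 tested genes (median 0.92). Some of its ligands are secreted and not held on the cell surface. Plxnd1, the receptor for semaphorin 3E, rose from 815 and 856 to 8921 and 8737 (log2 change 3.33). Its ligand Sema3e fell from 1200 and 1204 to 158 and 105 (-2.80), so receptor and ligand went opposite ways. Efna1 (ephrin-A1) rose by 3.32 and Efnb2, the arterial ephrin-B2, was at 0.77 and did not pass.

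Interferon-induced genes formed the list with the largest share of rises among the 43 lists described. Of 38 tested members, 28 rose and 1 fell, with a median log2 change of 1.64, and the median over the 42 on the chips was 1.51. Ifit3, an antiviral effector (93956_at, chromosome 19), went from 160 and 166 when sparse to 3100 and 2769 when confluent, a log2 change of 3.81 (SE 0.12, 14.0-fold, adjusted p = 1.7e-08). Iigp1, an interferon-inducible GTPase, rose by 3.43, Oasl2, of the oligoadenylate synthetase family, by 3.02, and Usp18, the protease that removes ISG15 and dampens interferon signalling, by 2.67. The gene that fell was the chemokine Cxcl10, from 1271 and 1038 to 322 and 261 (log2 change -1.82). The regulator Irf7, at 151 and 137 when sparse and 69.4 and 141 when confluent, overlapped between groups and did not pass.

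The sequence of the interferon-stimulated response element was common in the promoters of these genes. This element was searched as a pair of GAAA runs with any 2 bases between them. It was found, on either strand, for 14 of the 30 tested members with a promoter (46.7%), against 3.99% of all genes with one and 3.51% of tested genes. The windows below are those of Ifit3 (chr19:34583348-34583441, plus strand), Isg15 (chr4:156200850-156200921, minus strand) and Rsad2 (chr12:26456538-26456597, minus strand), with the matches in capitals, the 3 matches of Isg15 overlapping each other. Isg15 (log2 change 2.30) and Rsad2 (2.11), both of which rose, were picked after their values were seen.
Ifit3: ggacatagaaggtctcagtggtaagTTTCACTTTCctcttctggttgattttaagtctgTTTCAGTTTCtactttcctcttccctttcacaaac
Isg15: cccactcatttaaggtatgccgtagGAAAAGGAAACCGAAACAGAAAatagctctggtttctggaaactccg
Rsad2: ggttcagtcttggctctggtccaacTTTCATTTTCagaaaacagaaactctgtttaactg

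Antigen presentation moved with them. Of 11 tested genes of MHC class I presentation, 7 rose and 0 fell by the limma test (median 1.78, and 0.82 over the 15 on the chips). The rises include Tap1 (1.78) and Psmb8 (1.80), which the interferon list holds too, so the counts of the lists are not separate. H2-Q4 rose by 2.68, H2-K1 by 2.59 and H2-D1 by 2.49, whereas B2m, the shared light chain, was at 8179 and 8753 when sparse and at 13641 and 16527 when confluent, a log2 change of 0.82 that did not pass. The H2 genes are near-identical copies, so their probe sets may share signal. Chemokines and cytokines fell more often than they rose, with 6 falls and 2 rises of 14 tested: Cxcl12 fell from 1882 and 1762 to 366 and 406 (-2.10, although 1 of its 4 probe sets, at -0.59, did not pass), and Cx3cl1 (fractalkine) rose from 72.8 and 41.6 to 990 and 1267 (3.46). Il6 was at 0.52 and did not pass.

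Leukocyte adhesion and matrix genes were also higher on balance. Icam2 rose from 472 and 575 to 4045 and 4483 (log2 change 2.91) and Selp, P-selectin, from 217 and 164 to 1708 and 1748 (2.90). In all 5 of 11 tested leukocyte adhesion molecules rose and 2 fell, against 9.32% and 7.89% of all tested genes. The falls were those of Vcam1 (1923 and 1960 to 667 and 546, -1.61) and Alcam (-1.01), both picked after their values were seen. Of 14 tested basement membrane genes 6 rose and 0 fell by the limma test (median 0.88), led by Nid2, Agrn (agrin, 334 and 378 to 2878 and 3257, 2.94) and Lama4, the laminin chain of endothelium (2.56). Lamc1, at 0.43, did not pass. Among 16 tested collagens and collagen enzymes 7 rose and 0 fell by the same test (median 0.42): Col23a1 rose by 3.11, Col6a2 by 2.68 and Col3a1 by 2.54, with Col1a2 at 0.28 and Col5a2 at -0.11 not passing.

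Proteases that remodel the matrix rose with it, in 9 of 18 tested genes, and 3 fell (median 1.16, and 0.37 over the 26 on the chips). Mmp13, a collagenase, went from 36.7 and 52.0 to 1461 and 1432 (log2 change 3.99), Mmp14, the membrane-anchored MT1-MMP, from 941 and 781 to 5995 and 6560 (2.80), and Adam19 rose by 2.65. Plau (urokinase) was at 0.13. Of 11 tested integrin subunits 5 rose, Itga9 by 2.94 and Itga6, a laminin receptor chain, by 2.49, and 0 fell by the limma test; the common subunit Itgb1 was at 0.21. In the matricellular list, by contrast, 1 of 19 rose (Postn, periostin, from 14.4 and 7.5 to 704 and 706) and 3 fell. The falls were those of Ccn1 and Ccn2, which the YAP and TEAD list holds too, and of Ccn4 (-1.24), picked after its value was seen. Fibronectin (Fn1) was at 0.04.

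Among cell cycle genes, a part of the mitotic genes fell when the null cells were confluent, and few replication genes passed the test. Of 46 tested genes of mitosis and the spindle, 16 fell (34.8%, against 7.89% of all tested genes) and 0 rose by the limma test, 43 had a log2 change below 0, and the median was -0.82. The largest falls were those of Mybl2 (B-MYB, a transcription factor of the late cell cycle; 1045 and 883 to 248 and 223, log2 change -1.82), Anln (anillin, of the cleavage furrow; -1.78), Ect2 (the exchange factor that starts cytokinesis; 2867 and 3087 to 887 and 872, -1.70) and Bub1 (a spindle checkpoint kinase; -1.53). A second Mybl2 probe set, at -0.70, did not pass. Several defining genes had changes in the same direction that fell short of the threshold: Top2a -0.99, Mki67 (the Ki-67 antigen) -0.72, Cdk1 -0.53 and Plk1 -0.49.

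Of 45 tested genes of DNA replication and S phase, 4 fell (8.89%, near the 7.89% of all tested genes) and 0 rose by the same test, 40 lay below 0, and the median was -0.64. The 4 were Gins1 (453 and 449 to 46.7 and 42.8, -2.40), the polymerase subunits Pold2 (-1.39) and Pola1 (-1.21), and the origin factor Orc1 (-1.07, but -0.91 and short of the threshold without copy 1 of the confluent null cells). Mcm3 at -0.97, Cdc6 at -0.91, Mcm2 at -0.73 and Pcna at -0.51 did not pass. The number of replication genes that fell was 11 with arrays centred on their median, 8 without copy 1 of the confluent null cells and 2 with the filter at the 75th percentile, and their median lay between -0.79 and -0.50 under the alternatives run.

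The CHR, TTTGAA, a promoter sequence read by the complexes that time mitotic genes, was found on either strand for 28 of the 38 tested mitotic genes with a promoter (73.7%), against 20.2% of all genes with one and 14.2% of tested genes. The E2F sequence TTTGGCGC was found for 5 of 39 replication genes (12.8%), against 0.585% of all genes and 1.25% of tested genes. For comparison, the AP-1 sequence TGACTCA was found for 0 of 15 immediate early genes (5.95% of all and 4.7% of tested genes). The sterol response element, TCACNCCAC, was found for 1 of 19 genes of cholesterol synthesis (1.44% of all and 1.39% of tested genes). In 43 promoters of the table matches of 2 different motifs overlapped. The windows are those of 3 mitotic genes that fell, Ect2 (chr3:27153962-27154017, minus strand), Cdc20 (chr4:118437344-118437386, minus strand) and Kif2c (chr4:117178845-117178900, minus strand, where the match lies on the opposite strand). Cdc20 (log2 change -1.24) and Kif2c (-1.05) were picked after their values were seen.
Ect2: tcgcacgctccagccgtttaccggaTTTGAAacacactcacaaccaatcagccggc
Cdc20: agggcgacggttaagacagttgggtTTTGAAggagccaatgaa
Kif2c: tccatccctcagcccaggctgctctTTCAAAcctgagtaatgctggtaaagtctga

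Regulators of the G1 phase gave a mixed picture. Myc fell from 2619 and 2687 to 514 and 448 (log2 change -2.35) and Ccnd1 by 1.98. Mxd4, which competes with MYC for its partner MAX, rose from 407 and 435 to 2433 and 2470 (2.41), and Cdk4 was at -0.14. Another D cyclin, Ccnd2, rose from 262 and 233 to 829 and 653 (1.40), opposite to Ccnd1, and E2f4 was lower (-1.05). Ccnd2 and E2f4 were picked after their values were seen. Among 19 tested CDK inhibitors and quiescence genes 4 rose and 6 fell. The rises were those of Btg2 (1.54), Btg1 (1.44), Gas6 (1.35) and Ccng2 (1.02), the last 3 picked after their values were seen. All 3 Gadd45 growth-arrest and DNA damage genes fell, Gadd45b from 2607 and 2617 to 344 and 332 (-2.78), and Gadd45g and Gadd45a by 1.61 each. Cdkn1a (p21) was at -0.40 on its representative probe set and at 0.85 on another, and neither passed.

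The ATF4 stress response, which supplies amino acids and charged tRNAs, was lower in confluent null cells, with 18 of 26 tested genes falling and 3 rising (median -1.18, and -1.14 over the 31 on the chips). Psat1, an enzyme of serine synthesis, fell from 8718 and 7761 to 1356 and 1566 (-2.46), although 1 further probe set was at 0.17. Slc7a5, the LAT1 amino acid transporter, fell from 4439 and 4385 to 765 and 902 (-2.34), Chac1, a glutathione-degrading enzyme, by 2.33, and Mthfd2, of the mitochondrial folate pathway, by 2.26. Aars, an alanyl-tRNA synthetase, was at -0.87 and did not pass. Chaperones followed, with 8 falls and 0 rises by the limma test among 22 tested: Hspa1b fell by 2.70, Hspa1a, its near-identical copy, by 2.39, and the mitochondrial Hspa9 from 7362 and 7287 to 2126 and 2046 (-1.79), with Hspa8 at -0.71.

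In glycolysis and gluconeogenesis Fbp1 was the 1 gene of 19 tested that rose, and 4 fell, Slc2a1 (the glucose transporter GLUT1) by 1.92 and Hk2 (hexokinase 2) by 1.65. Pgk1, Ldha and Aldoa lay at -0.71, -0.79 and -0.91 without passing, although a second Aldoa probe set passed at -1.20. Of 26 tested genes of cholesterol and fatty acid synthesis 6 fell and 0 rose by the limma test (median -0.58): Elovl6, a fatty acid elongase, fell by 1.80, Cyp51, a demethylase of sterol synthesis, by 1.73 and Fdps, which makes farnesyl diphosphate, by 1.54. The regulator Srebf1 was at 0.92, and Sqle, Fdft1 and Hmgcs1 were at -0.75, -0.64 and -0.39 without passing. Ribosomal proteins (0 of 24 passed by the limma test, median -0.08) and the respiratory chain (1 of 43 rose, median 0.07) lay near the median of all genes, with Rplp0 at -0.07, Rps3 at -0.22 and Ndufs1 at -0.42.

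Growth factor signalling genes changed in both directions. A list of ERK-responsive genes, only some of them feedback inhibitors of the pathway, had 5 falls and 0 rises by the limma test among 16 tested. Phlda1 fell by 2.34, Dusp5 by 1.78 and Ier3 by 1.75. Dusp6, the ERK phosphatase, was at 1344 and 1624 when sparse and 2671 and 2777 when confluent (0.86, not passing). Among 20 immediate early and AP-1 genes 5 fell and 3 rose, against 7.89% and 9.32% of all tested genes. Ptgs2 (COX-2) fell from 1088 and 1069 to 103 and 79.9 (log2 change -2.999), and Egr1 (-0.13), Jun (0.09) and Junb (-0.07) did not pass. Of 10 tested beta-catenin and TCF targets 5 fell and 0 rose by the limma test, led by Fst (follistatin, 942 and 918 to 49.8 and 56.8, -3.25), which binds activin, with Lef1 at 0.09. The TGF-beta and BMP list, which holds Ccn2 and Fst too, split into 5 rises and 6 falls of 27 tested. The shares over all tested genes were 9.32% and 7.89%. Its ligand Bmp4 fell from 1230 and 1368 to 200 and 203 (-2.42), and the BMP target Id1 was at 0.35, not passing.

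Both insulin-like growth factors were higher at confluence. Igf2, an imprinted gene, rose from 98.0 and 72.4 to 1279 and 1358 (3.35), and Igf1 by 3.16, with 2 further probe sets at 3.71 and 3.05 and 1 at 0.97 that did not pass. Igf1r, their receptor, was at -0.31. In the Kruppel-like and Sox list 7 of 20 rose and 1 fell: Klf2, a factor induced by blood flow, rose from 47.3 and 28.6 to 460 and 488 (2.58), Klf5 fell by 2.42 and Klf4 was at -0.25. Of 15 tested vasoactive genes 6 rose and 2 fell. Ednrb, an endothelin receptor, rose by 3.70 and Pde2a, a phosphodiesterase of cyclic nucleotides, by 3.63. The falls were those of Ptgs2 (-2.999) and of the ligand Edn1 (-2.87), and the receptor S1pr1 was at 0.00.

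The remaining lists had calls in both directions or held few tested genes. Of 34 tested genes of the actin cytoskeleton 6 fell (17.6%, against 7.89% of all tested genes) and 1 rose: Rnd3 fell by 1.80 and Tpm1, a tropomyosin, by 1.55 (1 of its 3 probe sets, at -0.61, did not pass). The representative Actb probe set fell by 1.98 from sparse signals of 466 and 549, but another was at 0.17, and the actin control probe set of chip A was higher when confluent (28999 and 30459) than when sparse (23861 and 23878), so no direction is given for Actb; Actg1 was at 0.16. Among 12 tested smooth muscle and fibroblast genes 3 rose (25%, against 9.32% of all tested genes) and 2 fell. The rises were those of Pdgfrb from 9.5 and 16.5 to 311 and 344 (2.58), Smtn by 1.70 and Zeb1 by 1.45. The falls were those of the smooth muscle genes Acta2 (358 and 385 to 120 and 125, -1.29) and Tagln (143 and 159 to 24.1 and 64.2, -1.13). Tagln was picked after its value was seen. Blood markers had 2 rises of 6 tested, the erythropoietin receptor Epor (2.05) and the lysosomal Cd68 (1.55). Hypoxia targets had 1 rise and 2 falls of 17, with Hif1a at 0.16, and imprinted genes 3 rises and 2 falls of 16. With 9.32% rising and 7.89% falling over all tested genes, such small counts are not read as a response of either list. The mesothelial Msln fell by 3.01, the 1 call among 4 tested epithelial and mesothelial genes, and the 1 call among 3 tested stem cell genes was Klf2. The neuronal and aryl hydrocarbon receptor lists had 1 fall each of 6 tested.

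**Figure D2:**
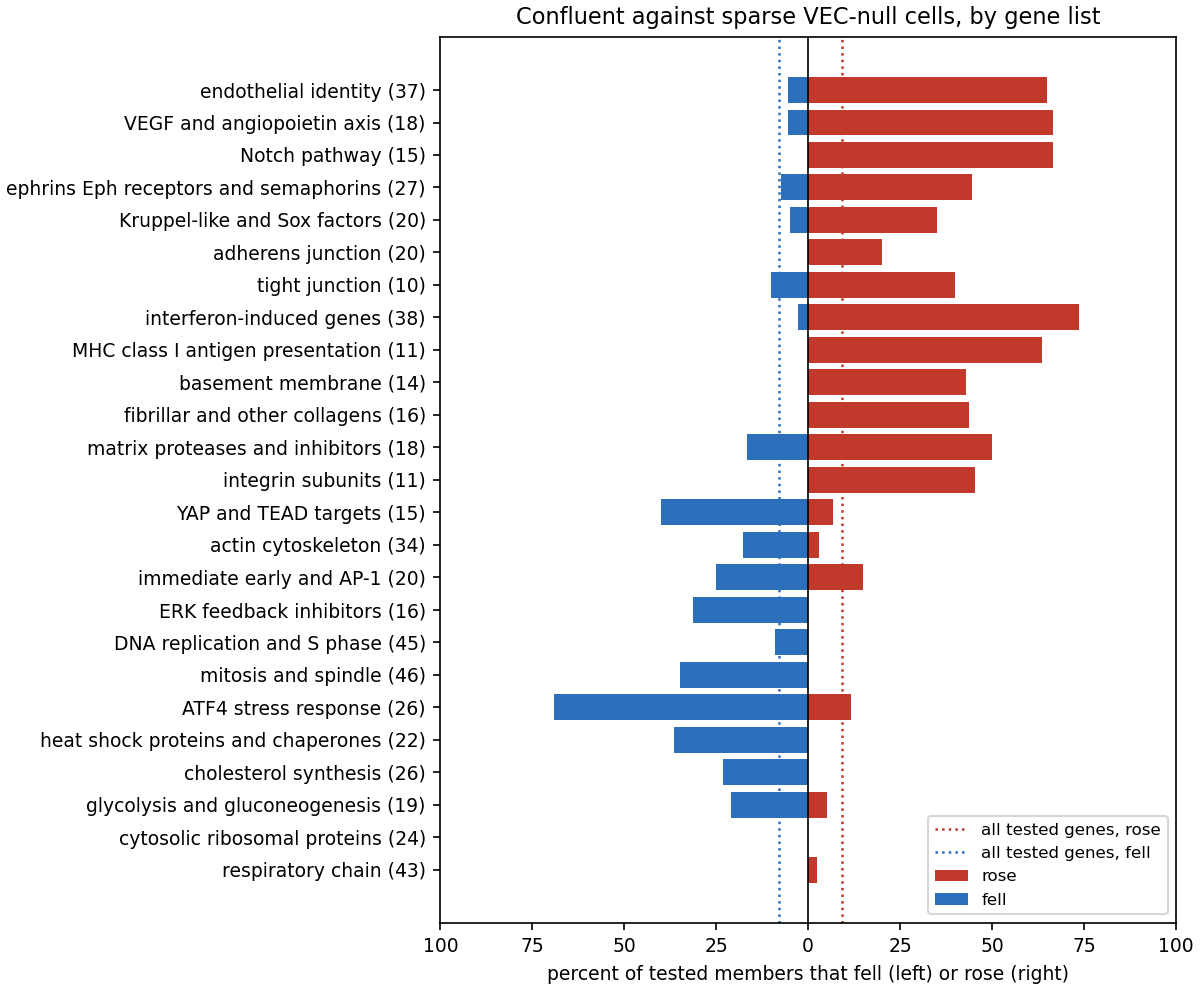
Share of the tested members of 25 gene lists that fell (left, percent) or rose (right, percent) in confluent against sparse VEC-null cells; the number tested stands in parentheses, and the dotted lines mark the shares over all 8960 tested genes, 9.32% rising and 7.89% falling. Interferon-induced genes (28 of 38), the VEGF and angiopoietin list (12 of 18, FGF and PDGF genes included) and the Notch list (10 of 15) reach farthest right. ATF4 genes (18 of 26) reach farthest left.

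The VEC-positive cells underwent the same change of density on other arrays, so their values can be set beside those of the null cells. Between confluent and sparse VEC-positive cells 780 genes (8.71%) rose and 649 (7.24%) fell. Of the genes that rose in null cells 427 also rose in VEC-positive cells, 51.1% of the 835 in null and 54.7% of the 780 in VEC-positive cells, and 6 fell there. Of the genes that fell 262 also fell, 37.1% of the 707 and 40.4% of the 649, and 3 rose. Across the 8960 genes, which are not independent replicates, the changes of the lines had a Pearson correlation of 0.626 and a Spearman correlation of 0.536; the lines share chips, scaling and culture conditions. Sox18 changed by 4.54 in VEC-positive cells (263 to 7238 in mean signal), Fbp1 by 4.02, Ccn2 by -4.04 (12247 to 696), Ankrd1 by -4.01 and Ifit3 by 3.69.

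The difference of the density changes (VEC-positive minus VEC-null) was tested in the same limma fit. It was above 0 for 593 genes (6.62%) and below 0 for 559 (6.24%) of 8960, 12.9% in all. Cell cycle lists stood on 1 side of it. For 27 of 46 mitotic and 23 of 45 replication genes the difference was positive, and for 0 of either it was negative by that test. The mitotic genes had a median of -0.82 in null and of 0.30 in VEC-positive cells (3 rises and 1 fall), and the replication genes of -0.64 and 0.48 (2 rises and 0 falls). Mybl2 was at -1.82 and 0.27 (difference 2.10, SE 0.23, adjusted p = 0.00022), Bub1 at -1.53 and 0.40 (1.93, SE 0.14, adjusted p = 3.3e-05) and Top2a at -0.99 and 0.71 (1.70, SE 0.16, adjusted p = 0.00011). In VEC-positive cells the Mybl2 signal was 219 and 310 when sparse and 313 and 341 when confluent, so the sparse null cells, at 1045 and 883, were the highest of the 4 conditions.

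Notch genes stood on the other side. The difference was negative for 6 of 15 and positive for 0 by the limma test, with medians of 1.28 in null and 0.33 in VEC-positive cells. Dll4 was at 3.32 and 0.18 (difference -3.14, SE 0.55, adjusted p = 0.0027), and its VEC-positive signals were 113 and 85.1 when sparse and 213 and 57.3 when confluent. Notch4 was at 2.51 and 0.33 and Notch1 at 2.31 and 1.22, whereas Dll1 changed by 2.88 and 2.95 with a difference of 0.07 (SE 0.20). Gja4, the arterial connexin, was at 3.52 and 0.16 (difference -3.35, SE 0.26), with VEC-positive signals of 18.2 and 14.4 when sparse and 18.3 and 30.8 when confluent. Matrix proteases had 10 of 18 negative and 0 positive differences by the same test, and ephrins and semaphorins 9 of 27 negative and 1 positive.

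Cholesterol synthesis also had negative differences, in 13 of 26 genes, with 0 positive by the test. Here both medians were below 0, at -0.58 in null cells with 6 falls and at -1.22 in VEC-positive cells with 16 falls. Fdps was at -1.54 in null and -4.14 in VEC-positive cells (difference -2.60, SE 0.13, adjusted p = 7.7e-06). Of the ribosomal proteins 12 of 24 fell in VEC-positive cells (median -0.98) against 0 in null cells, and 10 differences were negative. The bright Gapdh control of chip A also fell in VEC-positive cells, from 18938 and 19415 when sparse to 12920 and 12788 when confluent. On chip B its 3′ to 5′ ratio was 1.23 and 1.14 in the confluent VEC-positive arrays. The part of these shifts in the differences between the lines was not tested. Dusp6 was at 0.86 and -1.41 (difference -2.27, SE 0.17) and Hk1 at 0.52 and -2.30.

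**Figure D3:**
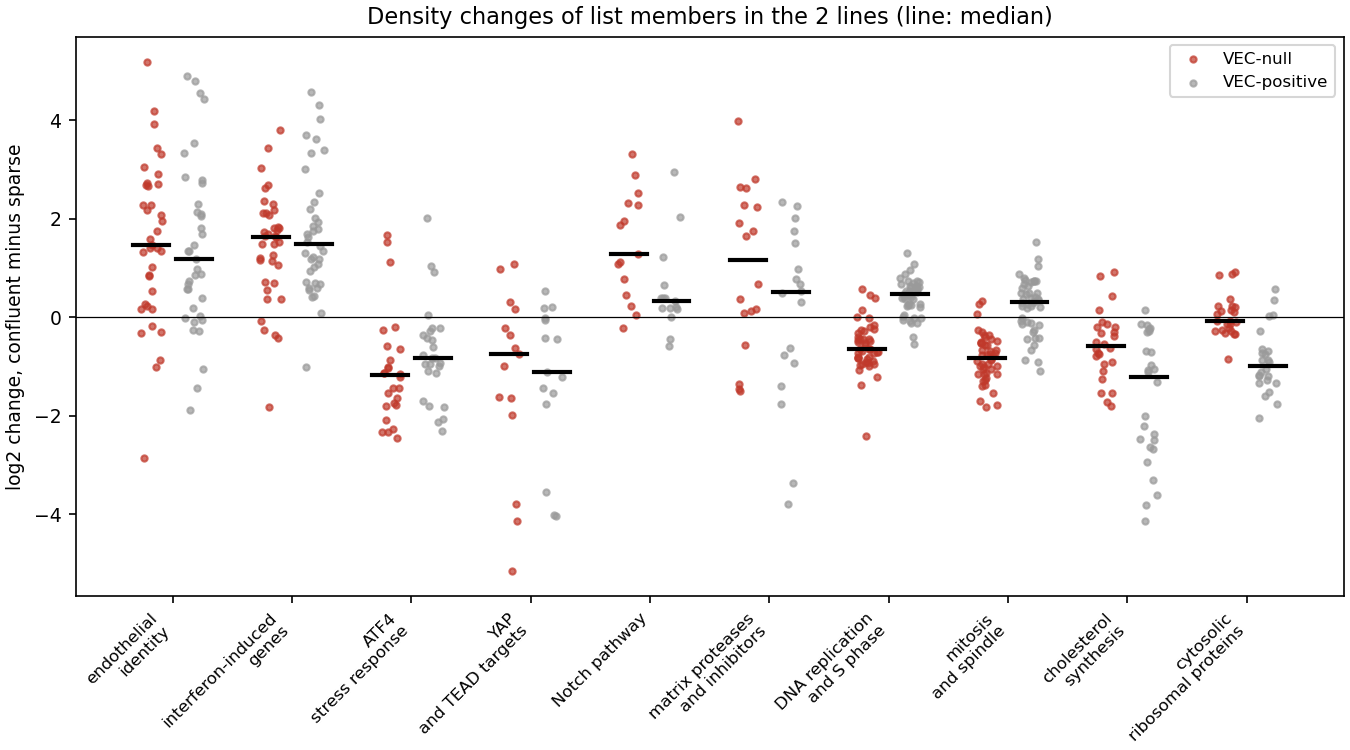
Log2 change, confluent minus sparse, of each tested member of 10 gene lists in VEC-null (red) and VEC-positive (grey) cells, with the median of each as a black line. The medians of mitotic genes (-0.82 and 0.30) and replication genes (-0.64 and 0.48) lie on opposite sides of 0, and those of interferon-induced genes (1.64 and 1.49) on the same side.

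Single genes with the largest differences, picked for that size, mostly showed a response in 1 line and little in the other. Among those with a change in null cells were Btnl9, a butyrophilin-like gene (6.9 and 9.5 when sparse, 935 and 1036 when confluent, log2 change 4.15, against -0.12 in VEC-positive cells), Adamtsl1 (3.46 against -0.24), the matrix protein Postn (3.63 against 0.09) and Zfp428, a zinc finger gene (-2.93 against 0.52). Upp1, uridine phosphorylase, was at 2.10 in null and -1.47 in VEC-positive cells, but its other probe set was at -0.20 in null cells. Those with a change only past the threshold in VEC-positive cells were Cldn5 (6.01 against 0.64 in null cells, difference 5.36, SE 0.38, adjusted p = 2.6e-05), Vwf (4.80 against 0.16), Lamb3, a laminin chain (3.99 against -0.36), Bgn, the proteoglycan biglycan (3.10 against -0.28), and the keratin Krt19 (-4.10 against 0.02). Krt19 was below 6 in every null array.

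**Figure D4:**
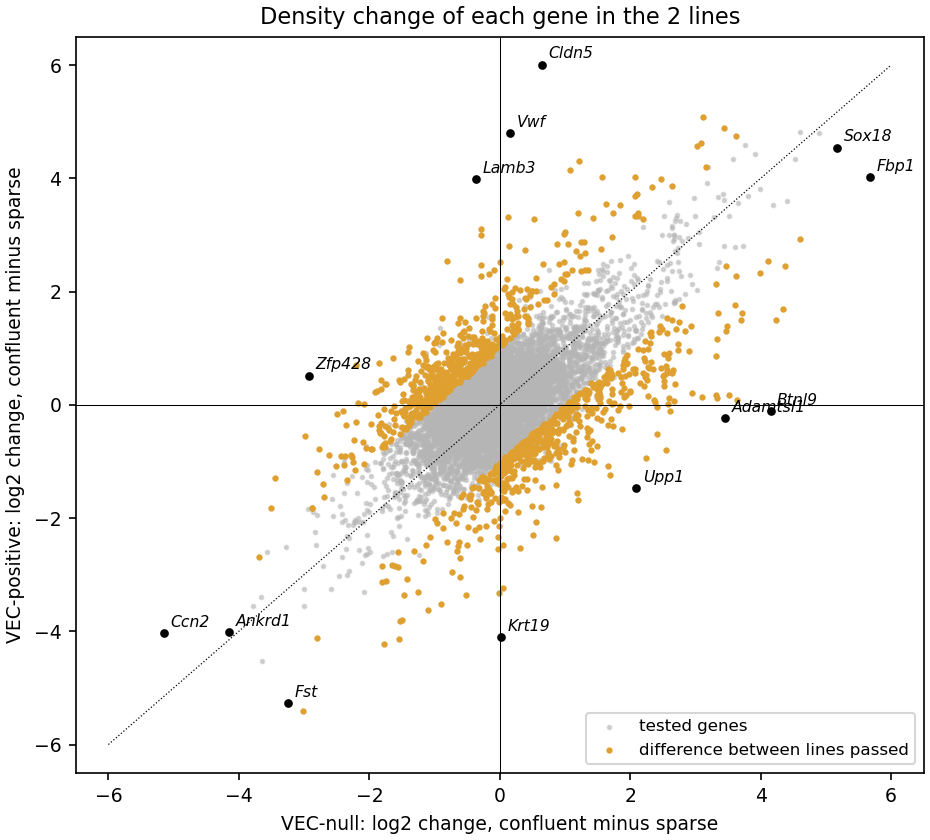
Density change (log2, confluent minus sparse) of each of the 8960 tested genes in VEC-null (horizontal axis) and VEC-positive cells (vertical axis); orange points are genes whose difference between the lines passed the limma test, and black points are labelled genes. Sox18, Fbp1, Ccn2 and Ankrd1 lie far from 0 in the same direction in both lines, although the difference between the lines passed the test for Fbp1 (-1.66) and Ccn2 (1.11). Cldn5 and Vwf lie near the vertical axis at the top, and Btnl9 and Adamtsl1 near the horizontal axis on the right.

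A last fit took the 4 cRNA samples as units, with the copies averaged and line and density as additive terms, so that the disagreement between the lines forms the residual. By it 554 genes (6.18%) rose and 376 (4.2%) fell with density. Its arrays include those of the null comparison. Sox18 (4.86, adjusted p = 2e-05), Fbp1 (4.85, adjusted p = 4.8e-05), Ccn2 (-4.59, adjusted p = 5.1e-05), Ifit3 (3.75, adjusted p = 3e-05) and Tek (2.95, adjusted p = 0.00019) passed. Of the lists, 25 of 38 interferon-induced and 18 of 37 endothelial genes rose, and 6 of 15 YAP and TEAD, 1 of 46 mitotic and 0 of 45 replication genes fell, by this fit. With 1 residual degree of freedom per chip, this fit leans on the spread borrowed from other genes.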

How the data were processed

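The deposited values are MAS5 signals, linear intensities per probe set that the authors scaled to 500 on each array, per the labels. A later normalisation on the median over all samples, named in the labels, was not seen in the values, and detection calls were not used here. MAS5 is named without a version in the submitters' processing notes. Control probe sets (66 per chip) were left out, which kept 24833 probe sets. Of these, 21414 had 1 gene symbol, 574 several (not named) and 2845 none, in GEO's platform annotation; 21367 were matched through Entrez identifiers to the RefSeq genes of GRCm38.p6, and 0 symbols changed. The files held 0 columns of other series.

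Values were analysed as log2(signal + 50). A probe set was kept where the mean of at least 1 of the 4 groups exceeded the median (50th percentile) of its chip, which left 6997 probe sets of chip A and 7304 of chip B. Such a filter favours any gene that passes through the group where it is high. For some lists the median over all members on the chips is therefore given too. The other list medians cover tested members only and carry this limit. A list is described by counts and median with no test. limma 3.58.1 (R 4.3.3) was fitted per chip over the 4 conditions with a variance prior that follows the mean (4 residual degrees of freedom, prior 5.65 for chip A and 5.62 for B). P values are limma's, adjusted by Benjamini-Hochberg over both chips. To pass, a change needed an adjusted p below 0.05 with a log2 size of at least 1. The script was tested on simulated data.

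The members, markers and 43 gene lists were chosen with earlier results of these data known. A gene is represented by 1 probe set, taken from chip A where possible and then by the highest mean signal. Other probe sets that disagree are named. Named genes are the 10 largest rises and falls, the 5 largest differences between lines in each direction, Cdh5, Sox18, Fbp1, Ccn2, up to 4 passing members of each list and up to 4 defining members that did not pass. Copy numbers did not pair the arrays (correlations of deviations of same-numbered copies from -0.06 to 0.08). Alternatives covered the offset, filter, scaling, variance prior, replicate block, arrays fitted and each copy left out. Motifs were searched with Python 3.11.15, and figures drawn with matplotlib 3.10.9.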

Additional observations from a re-analysis of the deposited data

Results flagged for a closer look

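For 82 of the 180 named genes the density change differed between the lines by the limma test of the difference. The threshold was an adjusted p below 0.05 and a size of at least 1, and 12.9% of all tested genes passed it. Named genes include the 5 largest differences in each direction and genes picked for a large null change, which enters the difference. Their higher share therefore follows in part from the choice. Values are log2 differences, VEC-positive minus VEC-null, so a positive value means that confluence went with a higher change in VEC-positive cells.

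Positive differences were found in junction, matrix and endothelial genes for Cldn5 (5.36), Vwf (4.65), Lamb3 (4.35), Bgn (3.38), Col23a1 (1.97), Gja1 (1.70) and Gpr182 (1.45). In cell cycle genes they were 2.29 for Gins1, 2.10 for Mybl2, 1.93 for Bub1, 1.81 for Pola1, 1.70 for Top2a, 1.60 for Mcm3, 1.58 for Orc1, 1.54 for Cdc6, 1.39 for Mki67, 1.26 for Ect2 and 1.11 for Mcm2. In genes of stress, metabolism and early response they were 2.15 for Atic, 1.998 for Gadd45b, 1.68 for Otud1, 1.34 for Mthfd2, 1.07 for Hspa1b, 1.02 for Phlda1 and 1.01 for Bcat1. In signalling genes they were 2.25 for Cxcl10, 1.62 for Sema3e, 1.54 for Oasl2, 1.44 for Cxcl12, 1.11 for Pde2a, 1.11 for Ccn2 and 1.04 for Igf1. Zfp428 (3.45) and Actb (1.63, whose probe sets disagree) complete these.

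Negative differences in endothelial, Notch, junction and adhesion genes were those of Btnl9 (-4.27), Gja4 (-3.35), Dll4 (-3.14), Efna1 (-2.45), Ednrb (-2.21), Notch4 (-2.18), Jup (-2.09), Selp (-1.95), Jam2 (-1.83), Klf2 (-1.76), Itga9 (-1.54), Tie1 (-1.19), Itga6 (-1.15) and Notch1 (-1.10). In matrix genes and their proteases they were -3.70 for Adamtsl1, -3.54 for Postn, -3.34 for Col3a1, -2.32 for Col6a2, -1.92 for Nid2, -1.66 for Mmp13, -1.15 for Adam19 and -1.05 for Mmp14. In metabolism they were -3.57 for Upp1 (whose probe sets disagree), -2.82 for Hk1, -2.60 for Fdps, -1.86 for Fdft1, -1.83 for Hmgcs1, -1.67 for Slc7a7, -1.66 for Fbp1, -1.26 for Sqle, -1.19 for Hk2 and -1.06 for Srebf1. In growth factor and early response genes they were -2.74 for Igfbp3, -2.44 for Dusp5, -2.27 for Dusp6, -2.02 for Fst, -1.78 for Id1, -1.72 for Igf2, -1.37 for Ier3, -1.09 for Jun, -1.05 for Rnd3 and -1.01 for Cx3cl1. Markers of other cell types and single genes were Krt19 (-4.12), Saa3 (-2.66), Pdgfrb (-2.57), Msln (-2.39), Cd68 (-1.82) and Rps3 (-1.30).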

How the results depend on the processing

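With an offset of 200 in place of 50, 829 probe sets were higher and 615 lower in confluent null cells and 1018 differed between the lines, against 1298, 1058 and 1745 as reported. The larger offset shrinks changes of dim probe sets by construction. In the other 18 settings each of these counts stayed within 1.5 times its reported value, and 0 named genes that had passed changed direction in any setting. Leaving out 1 copy of 1 condition gave 1283 to 1314 higher, 1019 to 1115 lower and 1630 to 1801 different between the lines; where it left 1 array in a condition, that array was assumed to vary like the others. Copies with the same number did not pair, and with the copy number as a replicate block the counts were 1300, 1062 and 1746.

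Of 116 named genes that passed, 114 kept their call in every setting in which they were tested. Cdh5 lost it in 4 settings (0.87 to 1.00), and Orc1 with an offset of 200 (-0.72) and without copy 1 of the confluent null cells (-0.91). Of 64 named genes that did not pass, 12 passed in some setting: Aars, Aldoa, Birc5, Cdc6, Cdh2, Cldn5, Ctnnb1, Ctnnd1, Dcn, F11r, Mcm3 and Top2a. With 1 cRNA sample per condition, no setting measures the spread between cultures, and signals near or below the chip median are limited by background.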
